A study of Mus musculus with 3 samples.

Results

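Levels of RNA for 42 cell cycle genes were measured in the chromatin fraction of mouse macrophages. The genes were chosen by symbol, with earlier results of these data known. Each matched 1 identifier among the 55536 genes of the deposited tables, of which 22028 are protein-coding. They fall into 16 regulators of the G1 phase, 12 genes of DNA replication and 14 genes of mitosis. Bone-marrow-derived macrophages (BMDM) are primary cells grown in culture from marrow precursors, here of the strain C57BL/6J. Lipid A is the membrane anchor of bacterial lipopolysaccharide, which macrophages sense through the receptor TLR4. All 3 libraries came from cells given Lipid A at 100 ng/ml for 12 h, kept for 12 h after wash-out, and given Lipid A at 100 ng/ml again for 10 min. Ribosomal RNA was depleted before total RNA sequencing. The libraries, numbered as biological replicates by the submitters, started from 1 µg, 250 ng and 500 ng of RNA in replicates 1, 2 and 3. Untreated cells, cells stimulated once and the cytoplasmic fraction were not analysed here, so no effect of Lipid A was tested, and comparisons lie between genes within libraries. Age and sex of the animals were not collected, per the labels.

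The cell cycle is driven by cyclin-dependent kinases (CDKs), which act only with a cyclin bound. In G1, cyclin D with CDK4 or CDK6, then cyclin E with CDK2, phosphorylate the retinoblastoma protein RB and its relatives, which releases E2F transcription factors to switch on the genes of DNA replication. Genes of G2 and mitosis are switched on later by complexes that hold B-MYB and FOXM1, and in resting cells they are held down by the DREAM complex, which contains an RB relative and E2F4. Macrophages grown from marrow divide in response to the growth factor M-CSF, and bacterial lipopolysaccharide is known to stop that division. Chromatin-bound RNA is rich in RNA still being made or spliced, so a level there is not the level of finished messenger RNA.

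The promoters of the 3 gene groups differed in the short elements they held. The groups follow function in the cell cycle and the elements searched are those of cell cycle promoters, so this difference is not independent of the grouping. RefSeq promoters (GRCm38.p6, 250 bases before to 50 after the start site) were found for 34 of the 42 genes, as 40 entries. Ccnd1, Ccnd2, Ccne2, Rb1, Mcm4, Foxm1, Aurkb and Ccna2 had no entry. Both strands were searched for an E2F-type element (TTTCCCGC, TTTGGCGC, TTTCGCGC or TTTGCCGC), for the cell cycle genes homology region, or CHR (TTTGAA or TTCGAA), which DREAM and B-MYB complexes can bind, and for the box bound by the factor NF-Y (CCAAT). A match is a description of the letters and not a site of binding. E2F-type letters stood in 6 of 12 replication promoters, 4 of 17 G1 promoters (23.5%) and 1 of 11 mitosis promoters (9.09%), against 2.85% of 21263 promoters of protein-coding genes. CHR letters stood in 9 of 11 mitosis promoters (81.8%), 2 of 12 replication promoters (16.7%) and 2 of 17 G1 promoters (11.8%), against 17.6% of all. NF-Y letters stood in 90.9% of mitosis, 75.0% of replication and 41.2% of G1 promoters, against 38.2%. CHR and NF-Y letters stood together in 81.8% of mitosis promoters, against 7.11% of all.

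**Figure D1:**
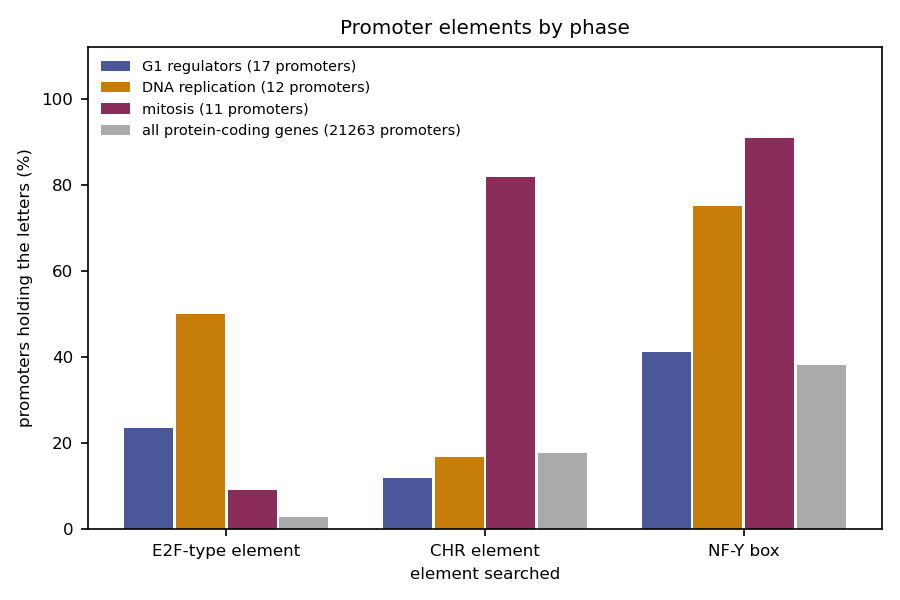
Share of promoters (percent, vertical axis) that hold each searched element (horizontal axis), for G1, replication and mitosis genes and for all 21263 promoters of protein-coding genes (grey). E2F-type letters are most frequent in replication promoters (6 of 12) and CHR letters in mitosis promoters (81.8%).

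The mitosis promoters shown are those of the genes with the highest levels in their group that held a match. Mki67, Top2a and Bub1b are printed over the 200 bases before the start site, 5′ to 3′ on the strand of the gene, with matches in capitals. Top2a held 4 CHR matches and 5 NF-Y matches in this stretch, and Mki67 held 2 CHR and 3 NF-Y matches. A palindromic CHR element (TTCGAA) was counted once.
Mki67 (chr7:135716380-135716579, minus strand): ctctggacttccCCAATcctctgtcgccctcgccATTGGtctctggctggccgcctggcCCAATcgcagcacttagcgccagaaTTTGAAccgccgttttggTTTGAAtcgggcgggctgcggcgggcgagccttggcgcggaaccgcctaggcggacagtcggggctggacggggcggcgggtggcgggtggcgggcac
Top2a (chr11:99024190-99024389, minus strand): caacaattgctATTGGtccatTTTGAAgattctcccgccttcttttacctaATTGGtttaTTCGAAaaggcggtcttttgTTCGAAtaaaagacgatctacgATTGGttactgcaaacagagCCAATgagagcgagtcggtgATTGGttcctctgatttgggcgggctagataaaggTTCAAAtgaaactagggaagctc
Bub1b (chr2:118598011-118598210, plus strand): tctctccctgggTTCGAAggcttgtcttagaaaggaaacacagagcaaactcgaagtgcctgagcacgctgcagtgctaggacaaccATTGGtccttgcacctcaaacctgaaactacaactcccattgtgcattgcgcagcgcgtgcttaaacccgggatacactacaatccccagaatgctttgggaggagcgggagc

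Replication promoters are shown by the same rule for comparison. Mcm6 held 3 E2F-type matches, 2 of them overlapping in 1 run of capitals, beside 2 NF-Y matches. Rrm1 held 2 NF-Y matches and no E2F-type letters. The Mcm7 stretch lies before the second of its 2 RefSeq start sites. The first start site held E2F-type letters, but its stretch overlaps annotated exons and is not printed. Pcna, which held an NF-Y match and no E2F-type letters, is left out for the same overlap.
Mcm6 (chr1:128359706-128359905, minus strand): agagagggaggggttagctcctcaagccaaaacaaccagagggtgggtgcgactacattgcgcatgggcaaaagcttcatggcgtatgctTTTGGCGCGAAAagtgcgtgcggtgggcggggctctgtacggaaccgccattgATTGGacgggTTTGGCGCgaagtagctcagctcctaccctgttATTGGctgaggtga
Rrm1 (chr7:102441495-102441694, plus strand): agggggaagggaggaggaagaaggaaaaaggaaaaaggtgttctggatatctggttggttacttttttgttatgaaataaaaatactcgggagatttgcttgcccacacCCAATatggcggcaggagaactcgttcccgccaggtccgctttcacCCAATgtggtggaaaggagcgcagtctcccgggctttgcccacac
Mcm7 (chr5:138171267-138171466, minus strand): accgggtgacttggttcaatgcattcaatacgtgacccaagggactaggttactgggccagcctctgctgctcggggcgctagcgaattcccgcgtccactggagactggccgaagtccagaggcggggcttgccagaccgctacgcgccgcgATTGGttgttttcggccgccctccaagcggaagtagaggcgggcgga

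Among G1 promoters, Rbl1 held an E2F-type match close to its start site, while Cdkn1b and Cdk2 held only NF-Y letters in the printed stretches. The Cdk2 stretch covers 128 bases, the part free of annotated exons. Its E2F-type match lies further upstream, with its first base at position -140 from the start site.
Rbl1 (chr2:157204535-157204734, minus strand): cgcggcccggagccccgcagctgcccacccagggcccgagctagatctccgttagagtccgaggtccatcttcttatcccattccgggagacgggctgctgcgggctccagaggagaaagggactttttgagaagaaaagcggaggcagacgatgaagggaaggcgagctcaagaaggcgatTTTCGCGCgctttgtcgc
Cdkn1b (chr6:134920201-134920400, plus strand): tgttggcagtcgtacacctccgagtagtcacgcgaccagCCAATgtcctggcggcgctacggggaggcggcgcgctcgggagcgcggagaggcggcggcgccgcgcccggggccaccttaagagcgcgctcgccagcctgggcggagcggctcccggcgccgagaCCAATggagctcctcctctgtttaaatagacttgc
Cdk2 (chr10:128705052-128705179, minus strand): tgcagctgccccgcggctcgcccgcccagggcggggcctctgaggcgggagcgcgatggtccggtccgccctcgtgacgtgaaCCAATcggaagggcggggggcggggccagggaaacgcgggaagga

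RNA of G1 regulators and replication genes was more abundant on chromatin than RNA of mitosis genes in each of the 3 libraries. Levels are given as TPM, the abundance of transcripts scaled for their length and to a fixed total per library. The level of a group is the median of log2(TPM + 0.1) over its genes. It was 2.56, 2.74 and 2.65 for G1 regulators in replicates 1, 2 and 3, and 2.16, 2.52 and 2.18 for replication genes. For mitosis genes it was 0.32, 0.54 and 0.35. No group overlapped another in these 3 values. The difference between G1 and mitosis was 2.25 ± 0.05 on the log2 scale (SD, n = 3), or 4.75-fold, and that between replication and mitosis was 1.88 ± 0.09, or 3.69-fold. The gap between G1 and replication was smaller, at 0.37 ± 0.13, or 1.29-fold. These fold values are on the log2(TPM + 0.1) scale and compare middle genes of each group, with no test, since genes are not replicates. Over all protein-coding genes the median was -0.43 ± 0.13, and over those detected it was 3.60 ± 0.11, above all 3 groups.

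**Figure D2:**
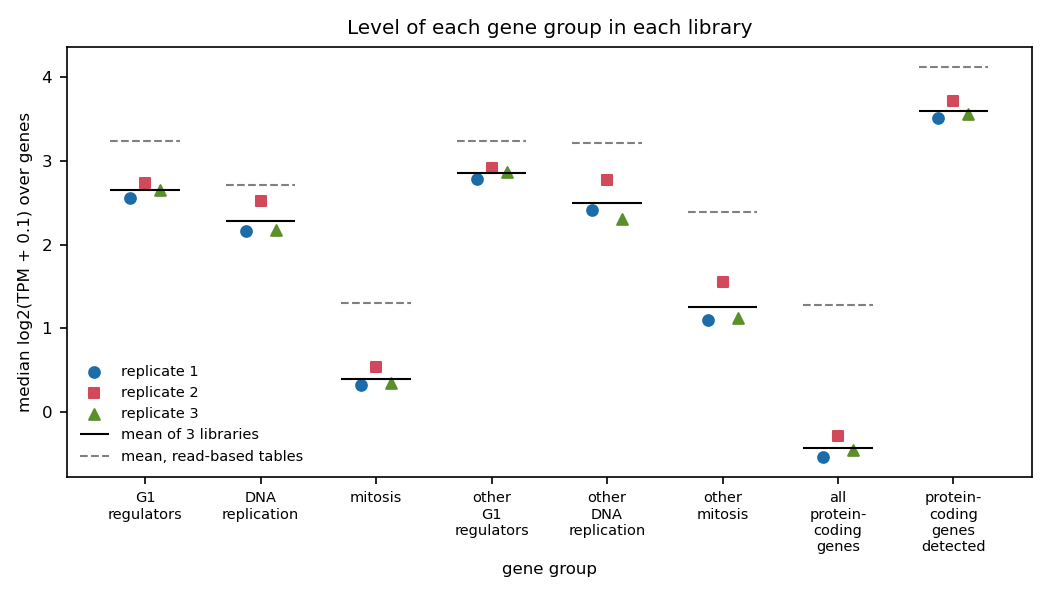
Median log2(TPM + 0.1) (vertical axis) of each gene group (horizontal axis) in each library (symbols), with the mean over 3 libraries (black line) and the mean in the read-based tables (dashed grey line). Mitosis genes sit at 0.40 in the gene tables, below G1 regulators at 2.65 and replication genes at 2.29.

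Genes that reached 1 TPM in each of the 3 libraries were counted as detected. This held for 13 of 16 G1 regulators (81.2%), 10 of 12 replication genes (83.3%) and 7 of 14 mitosis genes, against 45.6% of all protein-coding genes. None of the 42 genes lay below 0.1 TPM in every library. In a bulk sample, fewer cells that carry a transcript and less of it in each cell cannot be told apart.

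**Figure D3:**
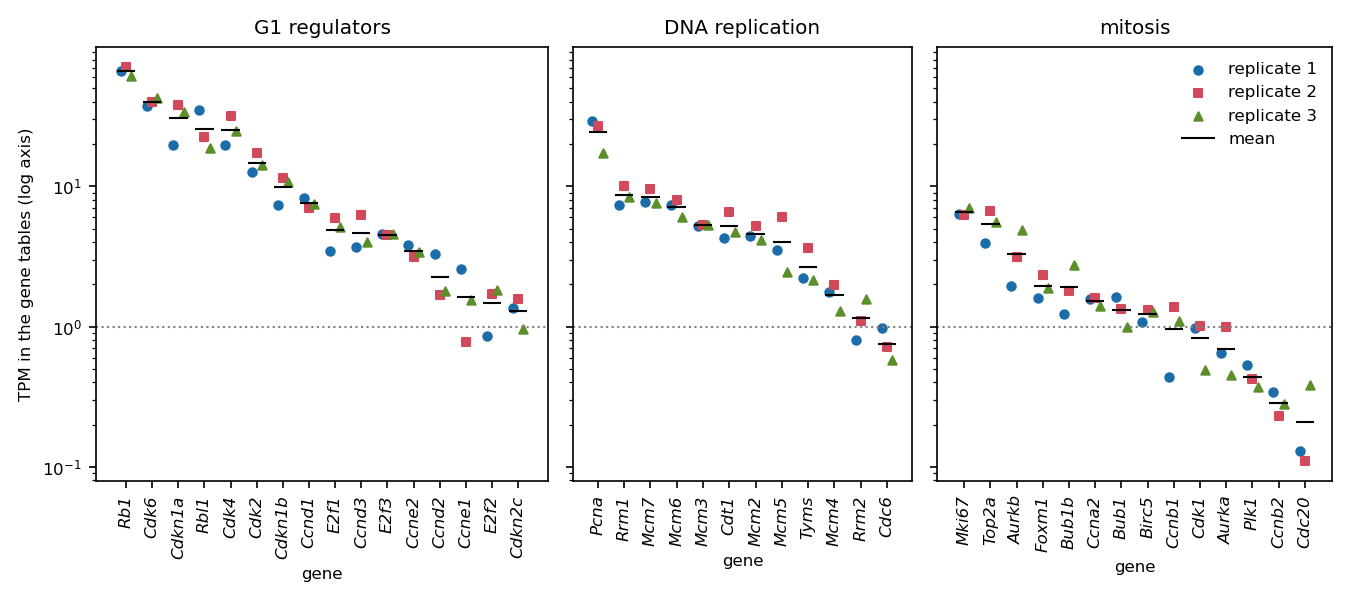
TPM of each gene (vertical log axis) in the 3 libraries (symbols) with the mean (black line), in order of mean within each phase. The dotted line marks 1 TPM; Rb1 at 66.3 is the highest of the 42 genes and Cdc20 at 0.207 the lowest.

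The retinoblastoma family gave the highest RNA level of the 42 genes. Rb1 (ENSMUSG00000022105.6, mm10 chr14:73183673-73325822), the tumour suppressor that binds and silences E2F, had 66.2, 71.2 and 61.5 TPM in replicates 1, 2 and 3. Its libraries lay close together, at 66.3 ± 4.81 TPM (SD, n = 3). Rbl1 (ENSMUSG00000027641.13, chr2:157145893-157204534), which encodes the RB relative p107, had 35.0, 22.5 and 18.9 TPM, with replicate 1 the highest. Rb1 was above Rbl1 in every library, by 1.42 ± 0.44 on the log2 scale. Rb1 overlaps the genes Lpar6 and Rcbtb2 on the opposite strand, at 20.2 ± 3.70 and 19.1 ± 2.46 TPM. Whether strand was used in counting is not given in the sources used here, so reads of opposite genes may be mixed, for Rb1 and for the other 16 genes with a partner on the opposite strand. Of these genes, Ccnd1, Ccnd2, Ccnd3, Cdk4, Cdk6, Cdkn1a, Rb1, Ccne2, Mcm7 and Ccna2 had expected counts that were not whole. The rest had whole counts in every library, and the source of the fractions was not tested.

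The kinases of G1 were all detected. Cdk6 had 37.1, 40.0 and 42.8 TPM, Cdk4 had 19.6, 31.6 and 24.9 TPM, and Cdk2, the partner of cyclin E, had 12.6, 17.4 and 14.2 TPM. By TPM, the order Cdk6, Cdk4, Cdk2 held in each library with no overlap between neighbours. By expected counts, which are not scaled for transcript length, Cdk2 was above Cdk4 in each library. The counts were 389, 712 and 550 for Cdk2 against 269, 528 and 446 for Cdk4. In TPM, Cdk6 exceeded Cdk4 by 0.68 ± 0.30 and Cdk4 exceeded Cdk2 by 0.77 ± 0.12 on the log2 scale. Each of the 3 kinases also stood above each D-type and E-type cyclin by TPM in every library of the gene tables. By counts, Ccnd1 was above Cdk4 in replicate 1, at 336 against 269.

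Among D-type cyclins, Ccnd1 had 8.30, 6.96 and 7.44 TPM, Ccnd3 had 3.68, 6.24 and 4.0 TPM and Ccnd2 had 3.31, 1.69 and 1.80 TPM. Ccnd1 was the highest in each library, by 1.76 ± 0.39 over Ccnd2. In the second set of tables, made by the authors straight from the reads and called read-based here, that gap was only 0.16 ± 0.55, and the Ccnd3 minus Ccnd2 difference turned from 1.03 ± 0.84 to -0.51 ± 0.62. The place of Ccnd2 among the D cyclins therefore rests on which deposited quantification is read. Ccnd1 overlaps LTO1 on the opposite strand, and LTO1 was higher than Ccnd1, at 29.2 ± 4.62 TPM. Of the E-type cyclins, Ccne2 had 3.80, 3.14 and 3.39 TPM, below Ccnd1 and above Ccnd2 in each library of the gene tables. In the read-based tables Ccne2 lay below Ccnd2 in replicate 1, at 9.83 against 13.4 TPM, and above it in replicates 2 and 3. The gap between Ccne2 and Ccnd1, 1.11 ± 0.01 on the log2 scale, was -0.04 ± 0.12 in the read-based tables. Ccne1 had 2.58, 0.780 and 1.54 TPM on 29, 16 and 23 counts. Ccne2 overlaps Ints8 on the opposite strand, which had 26.1 ± 1.13 TPM.

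Among CDK inhibitors, Cdkn1a, which encodes p21, had 19.8, 37.9 and 34.0 TPM, with replicate 1 the lowest. Cdkn1b, which encodes p27, had 7.41, 11.5 and 10.7 TPM, again lowest in replicate 1. Cdkn1a exceeded Cdkn1b in each library, by 1.59 ± 0.16 on the log2 scale. Cdkn2c, which encodes the CDK4 and CDK6 inhibitor p18, had 1.36, 1.58 and 0.960 TPM. Cdkn1a shares its locus with AC167363.2, an unclassified gene on the opposite strand at 27.0 ± 11.9 TPM.

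The activating E2F factors were low to moderate. E2f1 had 3.47, 5.97 and 5.13 TPM and E2f3 had 4.55, 4.50 and 4.54 TPM. Their ranges overlapped, with an E2f1 minus E2f3 difference of 0.06 ± 0.40 on the log2 scale, while in the read-based tables E2f3 was higher in each library and the difference was -0.48 ± 0.09. E2f2 had 0.850, 1.71 and 1.83 TPM, and lay below E2f1 by 1.70 ± 0.24.

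Replication genes ran from 0.753 TPM for Cdc6 to 24.4 TPM for Pcna. Pcna (ENSMUSG00000027342.14, chr2:132249162-132253314), the sliding clamp of DNA polymerases, had 29.2, 26.8 and 17.4 TPM, the highest of its group in every library. The MCM helicase is made of 6 different subunits, and their RNA was not at 1 level. Mcm7 had 7.77, 9.54 and 7.66 TPM and Mcm6 had 7.33, 7.93 and 6.03 TPM, with overlapping ranges and a difference of 0.23 ± 0.13 that was -0.02 ± 0.32 in the read-based tables. Mcm3 had 5.19, 5.29 and 5.32 TPM, Mcm2 had 4.40, 5.25 and 4.14 TPM, and Mcm5 had 3.54, 6.02 and 2.46 TPM. Mcm4 was the lowest subunit, at 1.76, 1.98 and 1.29 TPM, and lay below Mcm7 by 2.26 ± 0.20 on the log2 scale. Mcm7 overlaps Ap4m1 on the opposite strand, which had 19.2 ± 2.90 TPM, and it also hosts microRNA genes listed at 0 in the gene tables.

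Of the licensing factors that load the MCM helicase, Cdt1 had 4.31, 6.55 and 4.73 TPM, and Cdc6 lay below 1 TPM in each library, at a mean of 0.753 ± 0.199. The gap was 2.64 ± 0.52 on the log2 scale. The nucleotide enzymes showed a similar split. Rrm1, the large subunit of ribonucleotide reductase, had 7.39, 10.1 and 8.41 TPM. Rrm2, its small subunit, which is made mainly in S phase, had 0.80, 1.10 and 1.57 TPM on 13, 16 and 26 counts. Rrm1 exceeded Rrm2 by 2.83 ± 0.42 on the log2 scale. Tyms, thymidylate synthase, had 2.21, 3.65 and 2.14 TPM.

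In the gene tables the mitosis group was led by Mki67 and Top2a, both widely used as marks of dividing cells. In the read-based tables Cdk1 (12.8 TPM), Birc5 (8.84) and Top2a (8.34) lay above Mki67 (5.65). Mki67 (ENSMUSG00000031004.8, chr7:135689784-135716361), which encodes the Ki-67 protein, had 6.36, 6.26 and 6.97 TPM on 830, 1040 and 1036 counts. Its main transcript is 10061 bases long, so a moderate TPM rests on many counts. Top2a, the DNA topoisomerase that untangles sister chromosomes, had 3.95, 6.62 and 5.58 TPM. The ranges of Mki67 and Top2a overlapped, with a Mki67 minus Top2a difference of 0.30 ± 0.38 on the log2 scale. In the read-based tables Top2a was higher in each library and the difference was -0.57 ± 0.39.

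Below them, Aurkb, the kinase of the chromosomal passenger complex, had 1.96, 3.11 and 4.87 TPM, and Birc5, its partner survivin, had 1.07, 1.31 and 1.27 TPM. Foxm1, the transcription factor of the mitosis program, had 1.60, 2.34 and 1.88 TPM. The spindle checkpoint genes Bub1b and Bub1 had 1.23, 1.80 and 2.73 TPM and 1.62, 1.33 and 0.990 TPM, with overlapping ranges. Ccna2, cyclin A, had 1.57, 1.61 and 1.39 TPM. It overlaps Exosc9 on the opposite strand, which had 12.3 ± 1.12 TPM.

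The 7 genes with a mean under 1 TPM were Cdc6 of the replication group and 6 genes of mitosis, namely the mitotic kinase genes Cdk1, Aurka and Plk1, the cyclin B genes Ccnb1 and Ccnb2, and Cdc20, an activator of the anaphase-promoting complex. Their means ran from 0.207 TPM for Cdc20 to 0.967 TPM for Ccnb1. Cdc20 rested on 1, 1 and 4 counts, so its level was set by single reads. It overlaps Elovl1 on the opposite strand, which had 34.9 ± 8.74 TPM. At this depth 3 counts give 0.222, 0.150 and 0.165 CPM (counts scaled to the size of the library) in replicates 1, 2 and 3.

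Other genes of each phase were taken from lists chosen by function. Of 29 other G1 regulators, 23 were detected (79.3%), with a median level of 2.86 ± 0.06. The highest were Mdm2, the ligase that degrades p53, at 161 ± 3.18 TPM, Cdk7 at 27.0 ± 1.94, the RB relative Rbl2 at 22.8 ± 1.62, and the RB-binding histone chaperone Rbbp4 together with the DREAM subunit Lin37, both at 19.6 TPM. The lowest was Cdkn2a at 0.0300 TPM. Of 43 other replication genes, 37 were detected (86.0%), with a median of 2.50 ± 0.25. The highest were Samhd1, which breaks down nucleotides and restricts viruses in macrophages, at 835 ± 201 TPM, the clamp loader subunit Rfc2 at 89.5 ± 5.81, and the origin recognition subunits Orc3 and Orc4 at 68.6 ± 7.26 and 64.6 ± 11.0. The lowest was Fen1 at 0.297 TPM.

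Of 46 other mitosis genes, 26 were detected (56.5%), with a median of 1.26 ± 0.25. The highest were the condensin subunit Smc4 at 49.8 ± 6.12 TPM, Incenp, which anchors Aurora B, at 40.7 ± 8.79, Fzr1, which keeps the anaphase-promoting complex active in G1, at 27.7 ± 3.65, and the ubiquitin-conjugating enzyme Ube2s at 13.8 ± 3.85. The lowest was Ube2c at 0.0833 TPM, which had 5.84 TPM in the read-based tables. In each library the other mitosis genes lay below the other G1 and replication genes, so the order of the phases was the same as among the 42 genes.

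Summed over each group, replication genes had a larger share of their TPM assigned to transcripts annotated as keeping an intron than G1 or mitosis genes. Chromatin-bound RNA still being spliced also holds introns, and its part in this share was not tested. GENCODE marks transcripts that keep an intron as retained_intron, and their share of TPM was taken from the transcript tables of the same kind as the gene tables. Summed over the group, it was 52.6%, 51.1% and 54.6% for replication genes, 37.7%, 36.0% and 33.5% for G1 regulators, and 18.1%, 21% and 28.2% for mitosis genes. The means were 52.8% ± 1.76, 35.8% ± 2.11 and 22.4% ± 5.23 (SD, n = 3), against 37.1% ± 0.561 over all protein-coding genes, and the groups did not overlap. By expected counts, which favour long transcripts, the shares were lower but in the same order, at 32.9%, 17.2% and 2.59%, against 23.7% over all protein-coding genes. As a mean of each gene's own share, over genes at 1 TPM or more, the G1 and mitosis groups did not differ beyond their spread, at 25.4% ± 0.984 and 25.5% ± 2.77, and replication genes stood at 49.9% ± 1.05. The phases also differ in how many genes have such a transcript annotated, which was 11 of 12 replication genes, 9 of 16 G1 regulators and 9 of 14 mitosis genes. Among those at a mean of 1 TPM or more the medians per gene were closer, at 54.8%, 52.9% and 49.1%, against 45.4% over all protein-coding genes. Mki67 and Top2a have no such transcript annotated.

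**Figure D4:**
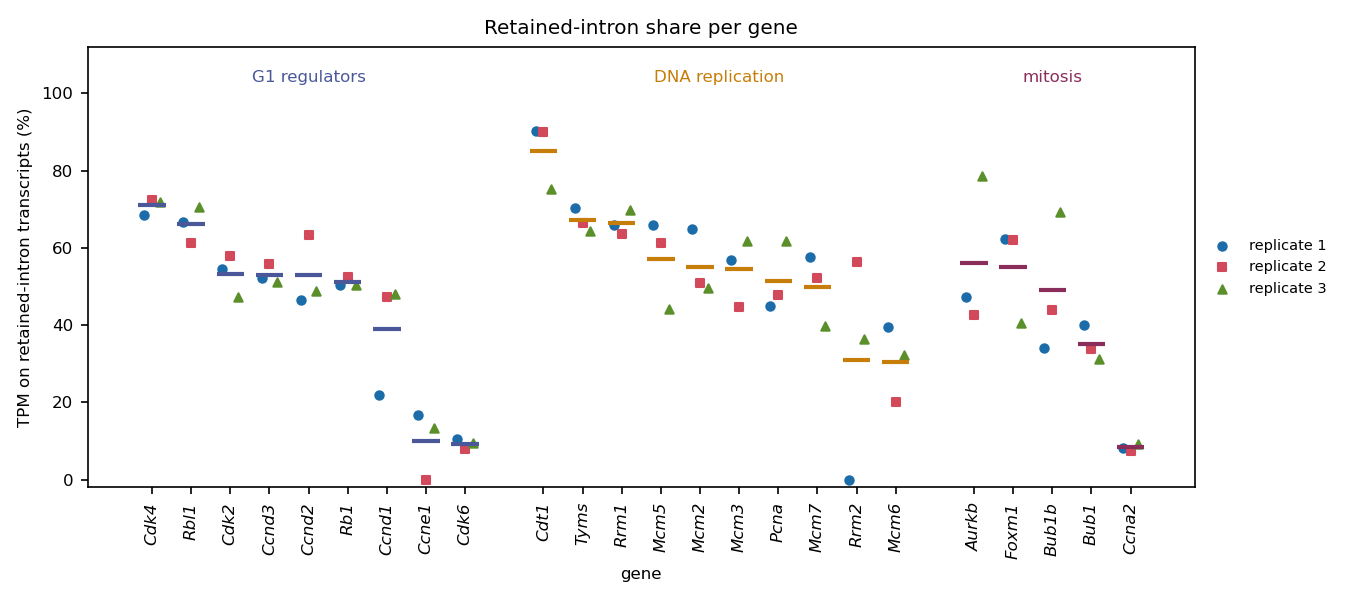
Share of a gene's TPM on transcripts annotated as retained introns (percent, vertical axis) for genes at a mean of 1 TPM or more with such a transcript (horizontal axis), in each library (symbols) and as a mean (line). Cdt1 is highest at 85.1% and Ccna2 lowest at 8.36%.

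Single genes ranged widely. Cdt1 had 90.3%, 89.9% and 75.3% of its TPM on retained-intron transcripts, and its coding transcript Cdt1-201 had 0.420, 0.660 and 1.17 TPM. Cdk4 had 68.6%, 72.5% and 71.9%, Rrm1 had 65.9%, 63.5% and 69.8%, and Rbl1 had 66.8%, 61.3% and 70.5%. Rb1 had 50.4%, 52.6% and 50.4%, so about as much TPM lay on its short intron-keeping transcripts as on Rb1-201, at 32.2, 33.6 and 30.3 TPM. That TPM rested on few counts, since TPM is scaled for length. Rb1-204 (946 bases) had 145, 197 and 150 expected counts and Rb1-205 (355 bases) had 39, 41 and 37. Rb1-201 (4656 bases) had 1897, 2502 and 2196. Cdk6 had only 10.5%, 7.95% and 9.43%. Cdk6 was thus above Cdk4 in total RNA and below it in this share.

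For some genes the transcript to which reads were assigned differed between libraries, and those named here were chosen after their values were seen. Ccnd3 was listed on Ccnd3-201 in replicate 1, at 1.20 TPM, with 0 in the other libraries, and on Ccnd3-205 in replicates 2 and 3, at 2.65 and 1.84 TPM, with 0 in replicate 1. These values rest on 29, 0 and 0 expected counts for the first and 0, 77 and 52 for the second. The read-based tables, made from the same reads, were alike, with 32, 0 and 0 counts on the first and 2, 92 and 79 on the second. Ccnd3 has 21 annotated transcripts, and whether the cells or the assignment of reads differed was not tested. The retained-intron share of Ccnd1 was 22.0% in replicate 1 and 47.2% and 48.0% in the others, while its coding transcript Ccnd1-201 had 6.48, 3.67 and 3.87 TPM. For Pcna, the processed transcript Pcna-203 had 9.96, 2.75 and 1.84 TPM and the coding transcript Pcna-201 had 6.09, 11.2 and 4.77 TPM.

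Both quantifications of the same libraries were set side by side. Read-based TPM was higher than that of the gene tables for 11 of 16 G1 regulators, 12 of 12 replication genes and 13 of 14 mitosis genes. The median ratio was 1.17, 1.32 and 1.71 in the 3 phases. It was 1.31 over protein-coding genes at a mean of 1 TPM or more and 1.60 over those between 0.5 and 2 TPM, a range that holds the means of 8 of the 14 mitosis genes. Cdk1, named after its value was seen, had 0.980, 1.01 and 0.490 TPM in the gene tables and 14.5, 12.1 and 11.9 TPM in the read-based tables. Most of the latter lay on Cdk1-207, a transcript of 695 bases, at 12.5, 10.1 and 9.29 TPM against 0 in each library of the first kind. For Birc5, Birc5-202 had 27, 39 and 34 expected counts and 551, 656 and 694 read-based counts. For Tyms, Tyms-201 had 0, 0 and 0.270 TPM against 6.55, 4.50 and 3.98. The read-based tables put 11 of 14 mitosis genes at 1 TPM or more in all libraries, in place of 7. The share of all protein-coding genes was not counted there. Their median log2(TPM + 0.1) was also higher, at 1.28 ± 0.03 against -0.43 ± 0.13 in the gene tables. The mitosis median in the read-based tables, 1.31 ± 0.21, did not differ from it beyond its spread. In those tables the G1 group still exceeded the mitosis group, by 1.94 on the log2 scale.

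**Figure D5:**
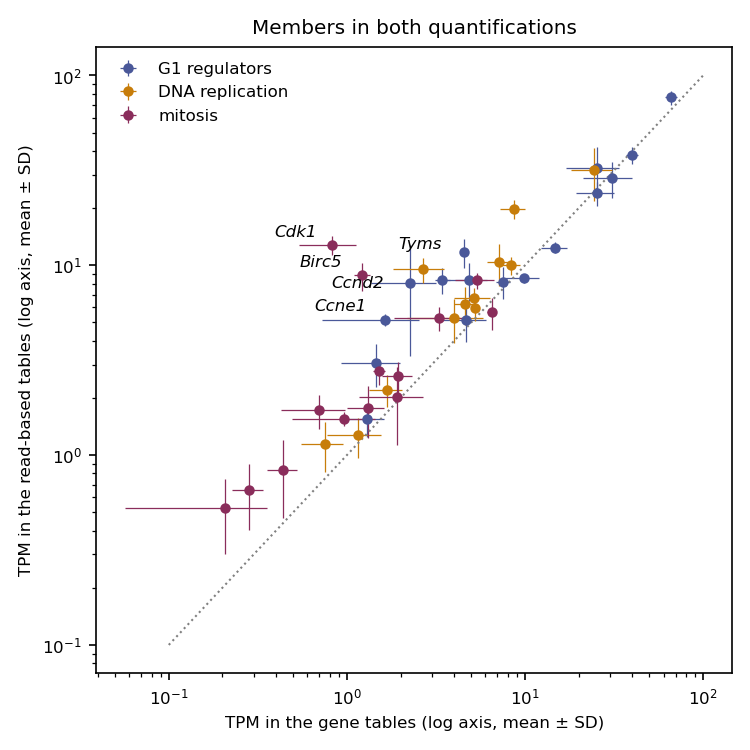
Mean TPM of each gene in the gene tables (horizontal log axis) and in the read-based tables (vertical log axis), with the SD over 3 libraries as bars and equality as a dotted line. Genes more than 3-fold higher in the read-based tables are named; Cdk1 stands farthest from the line, at 0.827 against 12.8 TPM.

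The spread between libraries was tested for each gene with edgeR, by the fit of its expected counts to a negative binomial model with 1 mean for the 3 libraries. Of 14789 genes tested, 167 (1.13%) varied beyond the trend at a Benjamini-Hochberg adjusted p below 0.05. None of the 39 cell cycle genes tested was among them, and DESeq2 dispersion outliers also held none. Ccnb1, Ccnb2 and Cdc20 had too few counts to be tested. Of the other pathway genes, 0 of 25 G1, 0 of 40 replication and 0 of 39 mitosis genes tested were called by edgeR. Each list held 2 genes at an unadjusted p below 0.05 and 0 DESeq2 dispersion outliers. At an unadjusted p below 0.05 there were 3 of 39, beside 922 of 14789 genes in all, and each stood apart in replicate 1. Rbl1 was highest there, with log2 CPM of 6.58, 5.78 and 5.49 (edgeR adjusted p = 0.0818, range over the alternatives 0.0206 to 1). It passed the threshold only where the fit was made on protein-coding nuclear genes, with edgeR adjusted p = 0.0206. Ccnd2 was also highest there, at 3.89, 2.67 and 3.03 (edgeR adjusted p = 0.141, range 0.091 to 1). E2f2 was lowest there, at 1.88, 2.75 and 2.98 (edgeR adjusted p = 0.789, range 0.772 to 1). In simulated counts with 1 library changed, 18.3% of 2-fold and 91.9% of 4-fold changes were recovered, so differences near 2-fold between libraries would mostly be missed.

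The median SD of log2 CPM was 0.32 for G1 regulators, 0.27 for replication genes and 0.23 for the 11 mitosis genes tested, against 0.18 over protein-coding genes tested. By log2(CPM + 0.1) from expected counts the group levels were 4.12, 2.96 and 1.04, with all 14 mitosis genes included. The G1 group thus had both the highest level and the largest median SD. Within that group, Rb1 had an SD of 0.04 on 2083, 2741 and 2384 counts in replicates 1, 2 and 3. Ccne1 had 0.60 on 29, 16 and 23 counts, and Rbl1 had 0.57 on 1376, 1079 and 780. Counting error raises this SD as counts fall, and its part in the order of the groups was not tested. By TPM, replicate 2 was the highest library for 8 of 16 G1 regulators, 8 of 12 replication genes and 7 of 14 mitosis genes. Replicate 2 was also the highest for 5353 of 10050 detected protein-coding genes, so its lead is shared with genes of any function.

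The libraries held 13538605, 19949204 and 18224466 expected counts on genes in replicates 1, 2 and 3. Replicate 1 had the largest RNA input, the lowest depth and the highest value of the share of counts on entries other than genes (1.39% against 0.288% and 0.283%), and with 1 library at each input the part of these in any replicate difference was not tested. All 10 macrophage markers were detected, with Adgre1 at 303 ± 76.5, Lyz2 at 143 ± 39.0 and Csf1r at 139 ± 11.5 TPM. Their summed TPM was 913, 1051 and 760, and Cd14, lowest in replicate 1 at 6.81, 19.6 and 20.4 TPM, was the only one called for spread (edgeR adjusted p = 0.00884). None of 10 markers of marrow precursors, 8 of fibroblasts and stroma, 8 of lymphoid cells or 8 of erythroid cells was detected in the gene tables. The precursor markers summed to 0.450, 0.610 and 0.890 TPM, with Elane and Ctsg at 0 and Kit the highest at 0.380 ± 0.210. Markers of fibroblasts and stroma summed to 0.0400, 1.75 and 1.60 TPM in replicates 1, 2 and 3, with Col1a1 at 0, 53 and 23 counts. Lymphoid markers summed to 0.460, 0.660 and 0.150 TPM and erythroid markers to 0.360, 1.39 and 0.450 TPM. In the read-based tables Cd3d had a mean of 13.7 TPM, Mpo 1.90, Cd34 1.56 and Col1a1 1.30, and the means of the other markers of these lists lay below 1. The part of such cells in the levels of mitosis genes was not tested.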

How the data were processed

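Total RNA of the chromatin fraction was sequenced in 3 libraries of 1 group. The authors deposited gene and transcript tables of expected counts and TPM per library, which the accompanying notes derive from alignment against mm10 transcripts (GENCODE M21). A second deposited set of transcript tables, with estimated counts and TPM, was quantified from the reads directly (read-based). Column names are those of RSEM and kallisto. Not given in the sources used here are aligner, versions and strand treatment. TPM has a fixed sum, so abundant RNAs lower the TPM of other genes.

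All 55536 gene identifiers were found in GENCODE M21. Read-based values were summed per gene, with 86 absent identifiers set to 0. Entries other than genes were left out of library sizes and tests. Depth was 13538605 to 19949204 expected counts, and limits at 3 counts cover counting error only. Expected counts were whole (within 0.005) in every library for 31 of the 42 genes, and the source of the fractions in the others was not tested. Groups of genes were compared within libraries by medians of log2(TPM + 0.1), with no p-value. Expected counts were rounded and fitted in edgeR 4.0.16 (R 4.3.3) with filterByExpr, TMM, a trended dispersion and an intercept, and the deviance was set against a chi-square distribution. The p-values describe spread among these libraries alone, which may be partly technical. The step was tested on simulated data. DESeq2 1.42.0, Python 3.11.15, numpy 2.4.6, pandas 2.3.3 and matplotlib 3.10.9 served for alternatives, tables and plots. Printed promoter stretches are the longest run free of annotated exons, between 100 and 200 bases. The genes and lists were chosen with earlier results of these data known. Genes at a mean TPM of 1 or more are named with each library's value, the rest by range. Of other pathway lists, up to 4 highest genes and the lowest are named. Pairs of genes compared within a family were picked with their values known. Alternatives covered the read-based tables, CPM, pseudocounts, means, rescaled TPM, thresholds, other fits and leaving out each replicate.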

Additional observations from a re-analysis of the deposited data

How the results depend on the processing

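Under the alternatives tried, no difference in median level between phases changed sign. The order of G1 and mitosis in retained-intron share, and of G1 and replication in detection, did. The G1 minus replication difference (0.37) became 0.53 in the read-based tables, 1.15 with CPM and 0.87 with means over genes. The G1 minus mitosis difference (2.25) became 1.94 in the read-based tables, 3.07 with CPM, 1.69 and 2.33 with pseudocounts of 1 and 0.01, 2.53 with means and 2.31 with TPM rescaled to protein-coding genes. The replication minus mitosis difference (1.88) became 1.38 with a pseudocount of 1, 1.66 with means and 1.41 in the read-based tables. At 5 TPM, 8 of 16 G1, 5 of 12 replication and 1 of 14 mitosis genes were detected. The read-based tables put 16 G1, 10 replication and 11 mitosis genes at 1 TPM. Under both settings the G1 share exceeded the replication share. The shares of all protein-coding genes under these settings were not counted. The retained-intron share of G1 regulators became 38.6% in the read-based tables, 17.2% by counts and 25.4% as a mean of each gene's share. For replication genes it became 32.9% by counts and 49.9% as such a mean, and for mitosis genes 2.59% by counts and 25.5% as such a mean, so that G1 no longer exceeded mitosis. The count of variable genes (167) became 61 as DESeq2 dispersion outliers, 271 in the read-based tables, and 52 to 68 when 1 replicate was left out, with fewer samples. On protein-coding nuclear genes only, 1 cell cycle gene (Rbl1) was called. The causes of the other shifts were not tested. Without replicate 3 the mean TPM of Cdc20 fell from 0.207 to 0.120, the only gene of the 42 whose mean moved over 1.5 times when 1 replicate was left out. The read-based tables moved 30 of 42 means by more than their SD. TPM rescaled to protein-coding genes moved all 42, as for Rb1 from 66.3 to 225 TPM and Cdc20 from 0.207 to 0.727. In the gene tables protein-coding genes summed to 299620, 309048 and 273340 TPM in replicates 1, 2 and 3. The TPM values and the 1 TPM threshold for detection therefore depend on this scaling. Depth limits the lowest mitosis genes, where single reads set the level. No paired analysis was possible because all libraries belong to 1 group.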
